A study of Caenorhabditis elegans with 4 samples.

Results

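The small heat shock proteins of Caenorhabditis elegans were followed through 10 genes chosen by symbol: hsp-12.1, hsp-12.2, hsp-12.3, hsp-12.6, hsp-16.1, hsp-16.2, hsp-16.41, hsp-25, hsp-43 and sip-1. Of these, 8 had a named probe, 1 probe each, and values on all 4 arrays, among 15059 named genes measured on at least 3 arrays. No probe carried the name of hsp-16.2 or hsp-16.41, and both were not analysed here. The family was taken up because hsp-12.6 had the most negative ratio of any named gene. The ratios of the members are therefore a description, and no p-value is given for any of them.

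Each of the 4 two-colour DNA arrays held messenger RNA from 1 preparation of adult males carrying a him-5 mutation, set against wild-type messenger RNA of mixed stages. Loss of him-5 disturbs segregation of the X chromosome and so raises the share of male offspring; which allele was used is not stated. Sex, stage and the him-5 mutation differ together between the 2 sides, and their shares in any ratio cannot be told apart. Males were in channel 2 and the reference in channel 1 on all 4 arrays, so any bias between channels stays in each ratio. The 4 preparations form the only group, and since the labels do not say whether they were separate cultures, the spread between them may be technical. In RNA from whole animals, fewer cells of a type and less RNA per cell cannot be told apart either. A value is the log2 ratio of males over reference, a direction that is likely from the titles and channel order and not settled, since no dye is named.

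Small heat shock proteins share an alpha-crystallin domain. Many of them, though not all, bind unfolding proteins without using ATP and hold them until the ATP-driven Hsp70 system can refold them. In C. elegans the hsp-16 genes are the classic heat-inducible members, switched on by the heat shock factor HSF-1. The shorter HSP-12 proteins have little sequence outside the domain. hsp-12.6 and sip-1 are among the members known to be activated by HSF-1 and by DAF-16, the transcription factor that insulin-like signalling holds out of the nucleus. They are not the only such members, and the members so activated were not compared as a group.

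Per array, 19424 to 19761 of 20000 probes had a value. The 30 major sperm protein genes (their product drives the crawling of sperm) had array medians of 4.01 to 5.08, and 29 were called higher. The 18 oocyte and eggshell genes had array medians of -1.83 to -1.25. With the ratio turned, sperm genes would be low and oocyte genes high in males. Of 19214 features tested with limma, 22.1% were called higher and 23.6% lower at a Benjamini-Hochberg adjusted p under 0.05, so that 48.3% of calls were higher; after centring on ribosomal protein genes this share was 25.7%. That centring moved the median of all features by -0.41.

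The members did not share a direction. Mean log2 ratios ran from -4.75 for hsp-12.6 to 0.94 for hsp-12.1, with 4 members above 0 and 4 below. By the same fit, 6 of the 8 members were called in either direction, against 45.7% of all features. Of these, 3 were called higher (hsp-12.1, hsp-16.1 and hsp-25), against 22.1% of all features, and 3 lower (hsp-12.6, hsp-12.3 and sip-1), against 23.6%. Because the family was chosen on this contrast, nothing is read from these counts. The median over the 8 members was 0.28, beside 0.05 over all features, and it was -0.13 after centring on ribosomal protein genes.

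**Figure D1:**
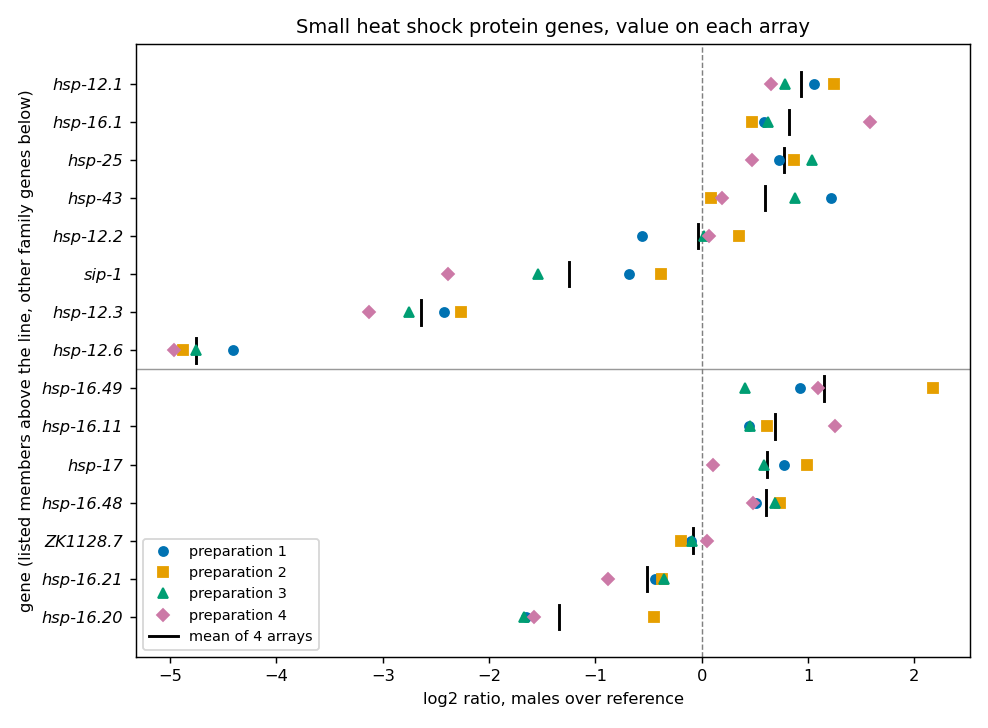
Log2 ratio of males over reference (horizontal axis) for each measured small heat shock protein gene (rows), with 1 symbol per preparation and a black bar at the mean of 4 arrays; the 8 listed members stand above the grey line and 7 other family genes below it. The 4 values of hsp-12.6 lie between -4.97 and -4.41, apart from those of every other gene shown.

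Among the HSP-12 genes, hsp-12.6 was the extreme. Its log2 ratio was -4.41, -4.88, -4.76 and -4.97 in preparations 1 to 4. All 4 arrays were low and close together. On preparations 1 to 3 hsp-12.6 ranked 1 from the lowest among all tested features, and on preparation 4 it ranked 2. The mean was -4.75 ± 0.24 (SD, n = 4), which is 27-fold lower in males than in the reference. The next named gene, B0507.8, stood at -3.98 ± 0.36 (SD, n = 4), and the nearest unnamed feature at -3.97. Leaving out any 1 preparation gave means of hsp-12.6 between -4.87 and -4.68.

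hsp-12.3, the gene next to hsp-12.6 in the genome, also had low ratios. It stood at -2.43, -2.27, -2.76 and -3.13 in preparations 1 to 4, below 0 on each array and without overlap with hsp-12.6. Its mean was -2.65 ± 0.38 (SD, n = 4), or 6.26-fold lower in males, and it ranked 77 from the lowest among named genes. Within each array the value of hsp-12.3 lay above that of hsp-12.6 by 1.83 to 2.61, with a mean difference of 2.11 ± 0.35 (SD, n = 4) that no shift of whole arrays can alter. Each of these genes had 1 probe, and whether the probe of hsp-12.3 also reads hsp-12.6 was not tested.

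The genes on the outer sides of this pair did not have such ratios. F38E11.9, beside hsp-12.3, stood at -0.50 ± 0.93 (SD, n = 4), with preparation 2 above 0 and the other arrays below. cutl-17, beside hsp-12.6, stood at -0.09 ± 0.65 (SD, n = 4), likewise above 0 on preparation 2 alone. Neither was called. Over all measured members, 11 of 13 adjacent genes outside the family were tested, of which 1 was called higher, 5 lower and 5 not (22.1% and 23.6% of all features were called higher and lower), with means from -1.99 for rml-3 to 2.23 for C14F11.4, the genes on the 2 sides of hsp-43.

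The other HSP-12 genes did not share the low ratios. hsp-12.2 had values of -0.56, 0.35, 0.02 and 0.07 in preparations 1 to 4, on both sides of 0, and was not called, with a mean of -0.03 ± 0.38 (SD, n = 4). hsp-12.1 had values of 1.06, 1.24, 0.79 and 0.65, above 0 on each array, and a mean of 0.94 ± 0.27 (SD, n = 4), or 1.91-fold higher in males. The ranges of hsp-12.3, hsp-12.2 and hsp-12.1 did not overlap one another. Between hsp-12.1 and hsp-12.6 the difference within an array averaged 5.69 ± 0.30 (SD, n = 4), so that the highest and the lowest mean among the listed members both belong to this class. With arrays centred on ribosomal protein genes, hsp-12.1 stood at 0.52 and was not called, while hsp-12.6 and hsp-12.3 stood at -5.17 and -3.06.

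**Figure D2:**
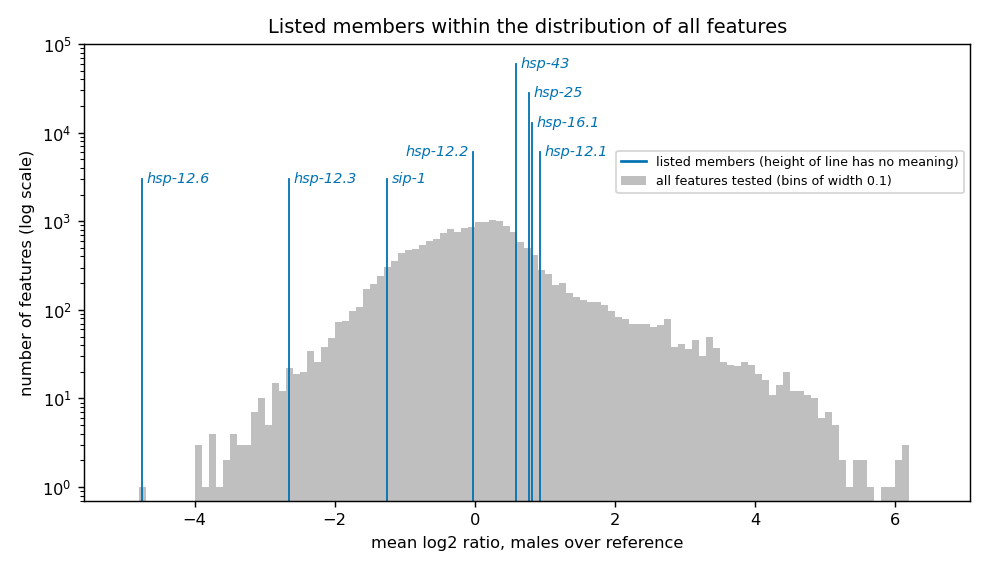
Number of features (vertical axis, log scale) by mean log2 ratio of males over reference (horizontal axis, bins of width 0.1), for all 19214 features tested in grey, with the means of the 8 listed members as blue lines whose height has no meaning. hsp-12.6 lies alone at the left end, hsp-12.3 in the left tail, and hsp-43, hsp-25, hsp-16.1 and hsp-12.1 close together on the right slope between 0.59 and 0.94.

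By a fixed measure of likeness, the Euclidean distance over the 4 log2 ratios, the genes closest to hsp-12.6 among 14657 others with 4 values were B0507.8 (distance 1.57), F40G12.5 (1.83) and the collagen gene col-164 (1.89). For hsp-12.3 the distance was 4.26, the 71st smallest. All 3 nearest genes lie among the lowest ratios of the series, and this measure reflects mainly the level of the ratio.

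sip-1 encodes a small heat shock protein that is abundant in oocytes and embryos. Its log2 ratio was -0.69, -0.38, -1.54 and -2.39 in preparations 1 to 4. All values were below 0, but the spread was wide: its SD of 0.90 was at least as large as that of 93.8% of features. The mean was -1.25 ± 0.90 (SD, n = 4), or 2.38-fold lower in males. The sample titles place preparations 1 and 2 in an earlier pair and preparations 3 and 4 in a later pair, and sip-1 averaged -1.96 in the later pair and -0.53 in the earlier. Without preparation 3 its call was lost at a mean of -1.15, and without preparation 4 the mean was -0.87. Calls were fewer over all features too without preparation 3, at 14.4% higher and 15.3% lower, against 22.1% and 23.6% with all preparations.

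The oocyte and eggshell list, which had 16 of 18 genes called lower and 1 higher, against 23.6% and 22.1% of all features, did not follow that split: its array medians were -1.83, -1.34, -1.25 and -1.81 in preparations 1 to 4. Early larval and dauer genes were low too, with 5 of 9 called lower and 0 higher by limma (0 higher also at an unadjusted p under 0.05), and array medians from -2.04 to -1.33. Of 20 moulting genes, 9 were called lower and 1 higher, with array medians from -1.71 to 0.25. For all 3 of these marker lists the shares over all features are 23.6% lower and 22.1% higher. The reference was of mixed stages, and the part of these stages in the ratios of hsp-12.6, hsp-12.3 and sip-1 was not tested.

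hsp-25 and hsp-43 are the longer family members, and HSP-25 is known at the dense bodies and M-lines of body wall muscle. hsp-25 had values of 0.72, 0.86, 1.04 and 0.47 in preparations 1 to 4, all above 0. Its mean was 0.77 ± 0.24 (SD, n = 4), or 1.71-fold higher in males. Its call was lost without preparation 3, at a mean of 0.69, and after centring on ribosomal protein genes, at 0.36.

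hsp-43 had values of 1.22, 0.09, 0.88 and 0.19 in preparations 1 to 4. Preparations 1 and 3 were high and preparations 2 and 4 near 0, so that its mean of 0.59 ± 0.55 (SD, n = 4) was close to its SD, and it was not called. Its range overlapped that of hsp-25, and the difference between the 2 genes, 0.18 ± 0.52 (SD, n = 4), was smaller than its spread. Of 16 body wall muscle genes, 8 were called higher and 1 lower, against 22.1% and 23.6% of all features, with array medians of 0.33, 0.07, 0.85 and 1.68. Muscle genes were thus highest on preparation 4, on which hsp-25 had its lowest value; the part of muscle in the ratio of hsp-25 was not tested.

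The hsp-16 class was represented by hsp-16.1 among the listed genes and by 5 further genes. hsp-16.1 stood at 0.58, 0.48, 0.63 and 1.58 in preparations 1 to 4. All values were above 0, and preparation 4 lay apart from the rest. The mean was 0.82 ± 0.52 (SD, n = 4), or 1.76-fold higher in males. The mean was 0.56 without preparation 4, where the call was lost, as it was without preparation 3 (0.88) and after centring on ribosomal protein genes (0.40).

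In the genome hsp-16.1 lies in a row with hsp-16.48, hsp-16.49 and hsp-16.11, which form an inverted duplication whose copies are nearly identical, so that a probe may read both copies of a pair. The probe of hsp-16.11, the copy of hsp-16.1, gave 0.44, 0.61, 0.45 and 1.25 in preparations 1 to 4. It repeated the high value on preparation 4, and the difference between hsp-16.1 and hsp-16.11 within an array was 0.13 ± 0.19 (SD, n = 4), smaller than its spread.

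The second pair of copies did not show this. hsp-16.48 stood at 0.51, 0.73, 0.69 and 0.48 in preparations 1 to 4, with values close together, a mean of 0.60 ± 0.13 (SD, n = 4) and its lowest value on preparation 4. hsp-16.49 stood at 0.92, 2.17, 0.41 and 1.09, with a mean of 1.15 ± 0.74 (SD, n = 4). Its highest value was on preparation 2, where it exceeded hsp-16.48 by 1.44, although the difference of the pair over all arrays, 0.55 ± 0.71 (SD, n = 4), was within its spread.

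Heat-inducible Hsp70 genes, chosen for comparison after their values were seen, were also highest on preparation 4. hsp-70 stood at -1.28, -2.10, -1.44 and 0.65 in preparations 1 to 4, and F44E5.5 at -1.65, -1.99, -1.29 and 1.45. Both were below 0 on preparations 1 to 3 and above 0 on preparation 4 only, and neither was called (means -1.04 and -0.87, against -1.61 and -1.65 without preparation 4). Among the 18 partner chaperone genes 15 had their highest value on preparation 4, as did 14 of 16 muscle genes and 14 of 20 moulting genes, against 29.4% of all features with 4 values. The same held for 1 of 18 oocyte genes and for 0 of 30 major sperm protein genes and 0 of 54 ribosomal protein genes, of which 52 were highest on preparation 2. The cause of these differences between preparations was not tested.

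**Figure D3:**
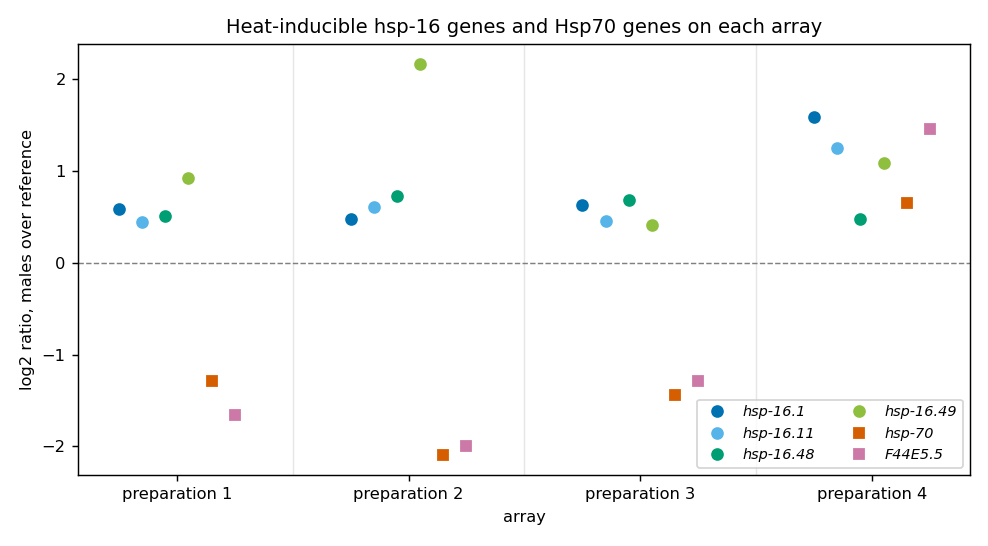
Log2 ratio of males over reference (vertical axis) on each array (horizontal axis) for 4 hsp-16 genes (circles) and 2 heat-inducible Hsp70 genes (squares). On preparation 4, hsp-16.1 (1.58), hsp-16.11 (1.25), hsp-70 (0.65) and F44E5.5 (1.45) reach their highest values, whereas hsp-16.48 (0.48) does not and hsp-16.49 is highest on preparation 2 (2.17).

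Of the other small heat shock protein genes, 4 of 7 were called higher and 2 lower, against 22.1% and 23.6% of all features. hsp-17 had values of 0.78, 0.99, 0.59 and 0.11 in preparations 1 to 4, all above 0, with a mean of 0.61 ± 0.37 (SD, n = 4). hsp-16.20 stood at -1.65, -0.45, -1.67 and -1.58, low on each array and least so on preparation 2, with a mean of -1.34 ± 0.59 (SD, n = 4). Its neighbour hsp-16.21 stood at -0.44, -0.37, -0.36 and -0.88, with a mean of -0.51 ± 0.25 (SD, n = 4). ZK1128.7 lay near 0 at -0.09 ± 0.10 (SD, n = 4) and was not called. Of these 7 genes, the 4 called higher (hsp-16.48, hsp-17, hsp-16.11 and hsp-16.49) all lost the call after centring on ribosomal protein genes, where their means were 0.19 to 0.73. Under that centring 8.37% of all features were called higher. The call of hsp-16.21 was lost on leaving out any 1 preparation, with means from -0.56 to -0.39, and that of hsp-17 without preparation 1, 2 or 3. Without preparation 1 or without preparation 3, 1 of the 7 was called higher and 1 lower, or 14.3% each. Over all features, 18.1% and 14.4% were called higher in these settings. On leaving out any 1 preparation, 15.3% to 21.9% of all features were called lower.

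In the order of the 15 means, only hsp-12.6 stood clear of all other genes shown. hsp-12.3 did not overlap the next gene, hsp-16.20, and the step between them was 1.31 ± 0.47 (SD, n = 4), but its range touched that of sip-1, which reached down to -2.39 on preparation 4. hsp-16.20 and sip-1 overlapped, as did sip-1 and hsp-16.21, whereas hsp-16.21 lay below ZK1128.7 without overlap. From ZK1128.7 upward, each gene overlapped the next, and from hsp-43 to hsp-16.49 no step between neighbours was larger than its SD over the arrays.

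The listed regulators were lower or not called. This list is mixed: it holds genes of the heat shock factor and insulin-like pathways and others such as skn-1, pqm-1 and pha-4. It also sets daf-16 beside genes whose products act against DAF-16. Of its 17 genes, 11 were called lower and 0 higher by limma (0 higher also at an unadjusted p under 0.05). The shares over all features were 23.6% lower and 22.1% higher. The list median was -0.74. hsf-1, which encodes the heat shock factor, stood at -0.75, -0.25, -1.14 and -1.40 in preparations 1 to 4. It was lower on each array, at -0.88 ± 0.50 (SD, n = 4, adjusted p = 0.0156), and its call was lost without preparation 3 (-0.80, adjusted p = 0.0751).

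daf-16 stood at -0.60, -1.72, -0.55 and -0.53 in preparations 1 to 4, lowest on preparation 2, with a mean of -0.85 ± 0.58 (SD, n = 4, adjusted p = 0.0249). Its call was lost without preparation 3, although its mean was lower there (-0.95, adjusted p = 0.0531). Further upstream, the kinase genes akt-1 and akt-2, whose products keep DAF-16 out of the nucleus, were lower at -1.94 ± 0.47 and -1.50 ± 0.19 (SD, n = 4, adjusted p = 0.000506 and 0.00051). Without preparation 3, 5 of the 17 were called lower, or 29.4%, against 15.3% of all features.

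The partner chaperone list is broader than the genes whose products take clients from small heat shock proteins. It also holds co-factors and chaperones of the endoplasmic reticulum and mitochondria. Of its 18 measured genes, 4 were called higher and 3 lower, with a list median of -0.29. These are 22.2% and 16.7% of the list, near the 22.1% and 23.6% of all features. hsp-4, a BiP chaperone gene of the endoplasmic reticulum, was higher at 1.55 ± 0.72 (SD, n = 4, adjusted p = 0.00378), though not after centring on ribosomal protein genes (1.14, adjusted p = 0.071). Also higher, and named here only once their values were known, were the second BiP gene hsp-3 at 0.91, unc-23 at 0.78 and the co-chaperone gene sti-1 at 0.52. The lower genes were the Hsp40 gene dnj-12 at -1.33 ± 0.88 (SD, n = 4, adjusted p = 0.0131), hsp-75, a mitochondrial Hsp90 gene, at -1.12 ± 0.54 (SD, n = 4, adjusted p = 0.00719) and, named after its value was seen, the ubiquitin ligase gene chn-1 at -0.99. Without preparation 1, 3 or 4, 1 gene was called higher, against 18.1%, 14.4% and 17.8% of all features. Without preparation 4, 7 were called lower, or 38.9%, against 21.2% of all features.

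Known targets of DAF-16 outside the family did not share a direction. Of 18 measured, 8 were called lower and 2 higher, against 23.6% and 22.1% of all features, with a list median of -0.52. The metallothionein gene mtl-1 stood at -2.17, -3.74, -3.51 and -4.21 in preparations 1 to 4, low on each array, with a mean of -3.41 ± 0.87 (SD, n = 4, adjusted p = 0.000239). dod-3, named for lying downstream of daf-16, was lower at -3.18 ± 0.79 (SD, n = 4, adjusted p = 0.000232). At the other end, the glutathione S-transferase gene gst-4 was higher at 2.38 ± 0.70 (SD, n = 4, adjusted p = 0.000549), and the other higher gene, named after its value was seen, was mtl-2 at 1.65. sod-3, a superoxide dismutase gene often used as a readout of DAF-16 and also chosen after its value was seen, was not called at 0.16 ± 0.22 (SD, n = 4).

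**Figure D4:**
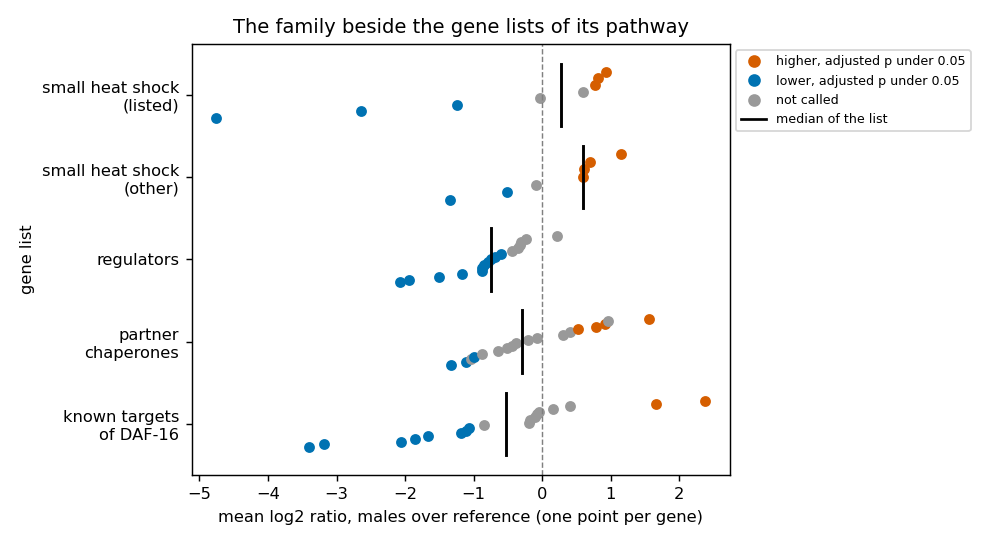
Mean log2 ratio of males over reference (horizontal axis) for each gene (points) of 5 lists (rows), coloured by whether limma called it at an adjusted p under 0.05, with the list median as a black bar. Of 17 regulators, 16 lie below 0 (median -0.74), beside 9124 of all 19214 features tested. Partner chaperones spread to both sides, with 11 of 18 below 0. Known targets of DAF-16 also do, with 14 of 18 below 0.

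Other scalings of the arrays could not change the order of the 3 low members, so that order tests nothing. Centring moves all listed members alike. Quantile normalization keeps ranks within an array, and these members stood in the same order on each array. Median centring lowered each listed member by 0.03. Quantile normalization moved some up and some down, with the largest move, 0.06, for hsp-12.2. Centring on ribosomal protein genes lowered each member by 0.41, since those genes had array medians of 0.13, 1.11, 0.05 and 0.36 in preparations 1 to 4. Under it the 3 low members (hsp-12.6, hsp-12.3 and sip-1) kept their calls, and 0 of 8 members were called higher by limma (0 also at an unadjusted p under 0.05). Of all features, 8.37% were called higher and 24.2% lower under this centring.

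**Figure D5:**
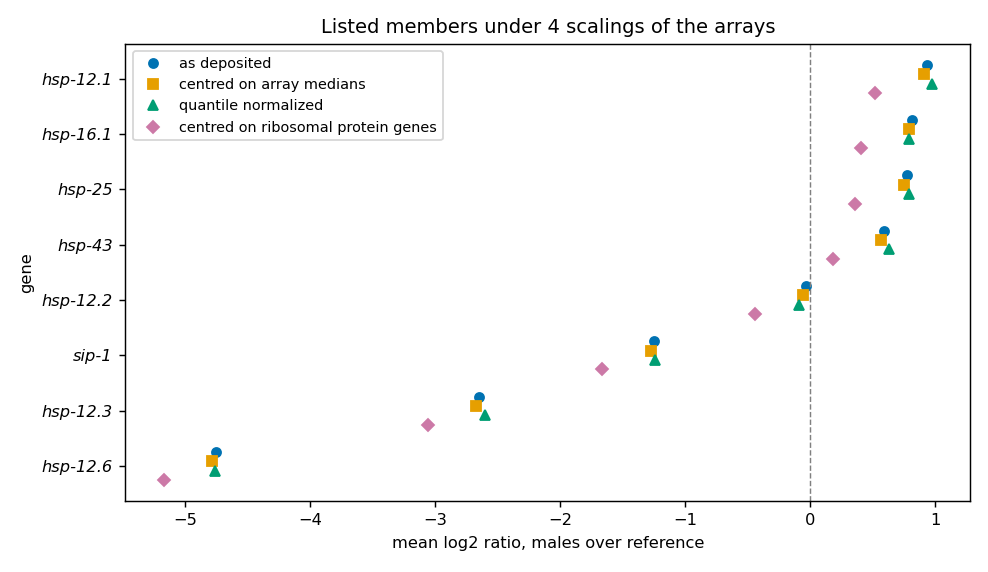
Mean log2 ratio of males over reference (horizontal axis) of each listed member (rows) under 4 scalings of the arrays (symbols). Centring on ribosomal protein genes places each member 0.41 to the left, with hsp-12.2 at -0.45 and hsp-43, hsp-25, hsp-16.1 and hsp-12.1 still above 0 at 0.18 to 0.52.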

How the data were processed

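The authors deposited log2 ratios of 4 two-colour arrays, already scaled per array; the scaling method, image analysis, background correction and build are not given in the sources used here. Base 2 was read from the values: on each array 100% of ratios below 3 were whole multiples of 0.001 (within 0.01 of that step). Of 20000 probes, 15655 had 1 gene symbol in the platform annotation, 198 several and 4147 none, and symbols were updated through gene identifiers of assembly WBcel235, which also gave gene neighbours. Probes were averaged per gene and array. Of 19513 features, the 19214 measured on 3 or more arrays entered a limma 3.58.1 fit in R 4.3.3 (lmFit and eBayes, mean against 0, two-sided, Benjamini-Hochberg over all features, adjusted p under 0.05); no array held reference RNA in both channels, so the spread of the reference is left out. The number of arrays limits the precision. The steps were tested on simulated data. Members and lists were chosen with earlier results of these data known. The rule for naming covers all members, other family genes, neighbours (given mostly as counts), up to 3 called genes per list that have 1 sign on the arrays and the largest ratio in size, hsf-1, daf-16 and the 3 genes nearest to hsp-12.6. Also, 1 regulator that the rule names is not reported here. Alternatives were median, ribosomal and quantile scaling, limits on missing values, robust eBayes, period as a covariate, single probes, an adjusted p under 0.01 and leaving out each preparation. No sequences were used. Figures were drawn with matplotlib 3.10.9.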

Additional observations from a re-analysis of the deposited data

Results flagged for a closer look

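Single preparations lay far from the other 3 for 4 of 34 genes and list medians, judged by the gap to the nearest value as a share of the range; chance flags about 1 in 20 such groups. hsp-16.1 was high on preparation 4 at 1.58. hsp-16.20 was least low on preparation 2 at -0.45, and hsp-16.21 lowest on preparation 4 at -0.88. daf-16 was lowest on preparation 2 at -1.72.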

How the results depend on the processing

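No paired analysis was possible because the 4 preparations form the only group. Limits on missing values and single probes could not move the listed members, which have 1 probe and 4 values each. Of 72 values of listed members under the other alternatives, 67 lay within 1 SD of the value as deposited and 0 reversed a call. The other 5 lay further off, all after centring on ribosomal protein genes. Most of the 72 are means without 1 preparation or within 1 pair of arrays, which cannot lie 1 SD from the mean of 4 values. Nor can they reverse a call, as each called member had 1 sign on all arrays. These settings therefore test neither point. Centring on ribosomal protein genes gave 1608 features called higher (8.37%), 0 members and 0 partner chaperones called higher (0 and 1 at an unadjusted p under 0.05, limma) and a family median of -0.13. At an adjusted p under 0.01, 2393 features were called higher and 2683 lower, 5 regulators lower and 1 partner chaperone higher. With period as a covariate 5 partner chaperones were called lower, or 27.8%, against 23.1% of all features. Leaving out 1 preparation gave 2759 to 3784 features called higher (14.4% to 19.7%) and 2933 to 4213 lower (15.3% to 21.9%), with the lowest counts without preparation 3. It gave 1 to 3 members called higher and 2 to 3 lower, a family median of 0.22 to 0.29, 5 to 11 regulators lower, and 1 to 5 partner chaperones higher and 3 to 7 lower. The cause of these shifts was not tested. Spot intensities were not used, so no limit from signal over background can be given.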
